A study of Ovis aries with 6 samples.

Results

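Mitogen-activated protein (MAP) kinase genes, dual-specificity phosphatase (DUSP) genes and the AP-1 and EGR1 genes that the cascades induce were described in sheep milk somatic cells. Members were chosen by gene symbol: symbols that start with MAPK, with MAP2K, MAP3K or MAP4K and a number, or with DUSP and a number, and FOS, FOSB, FOSL1, FOSL2, JUN, JUNB, JUND, ATF3 and EGR1. Of 86 sheep symbols that meet this rule, 46 were matched to a transcript of the deposited table, out of 11285 matched genes in all. Each gene was represented by its transcript of highest mean level, and 34 of the 46 reached the mean of 1 RPKM (reads scaled to transcript length and to the library total) needed for testing. The other 40 symbols, among them MAPK8, JUNB and MAPKAPK2, had no match and are not analysed here.

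The cells were those of milk from 3 Comisana ewes, at day 90 of lactation when the study began. The control group held 1 library from each ewe on grass hay and a commercial concentrate, fed for 3 weeks. The linseed group held 1 library from each of these ewes after 3 weeks with a concentrate that was 20% extruded linseed by dry matter, a feed rich in alpha-linolenic acid. Milk was taken at the start and the end of the experiment, per the labels. Libraries were paired by the number in their titles, which was assumed to mark the ewe. No animal stayed on the control diet, so diet and the time between samplings cannot be told apart.

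MAP kinase cascades pass signals from cell surface receptors through 3 tiers of kinases: a MAP3 kinase activates a MAP2 kinase, which activates a MAP kinase. MAP kinases then phosphorylate transcription factors and downstream kinases, and immediate early genes such as FOS, JUN and EGR1 are transcribed within minutes. DUSP enzymes remove the activating phosphates, and several of their genes are themselves induced by the cascade, which closes a feedback loop. In milk cells these pathways act both in the secretory epithelium and in macrophages, neutrophils and lymphocytes. RNA levels do not show whether a kinase was active.

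The libraries held 4941935 to 22644050 reads, as solved from the steps of the RPKM values. Milk protein genes took 58.7%, 40.6% and 7.82% of all RPKM in the controls of sheep 1, 2 and 3. On linseed they took 34.8%, 28.8% and 1.87%. Defining markers of the labelled material were present: EPCAM, KRT8 and ELF5 of epithelium summed to 93.6 to 275 RPKM in controls and 28.8 to 585 with linseed, lowest in sheep 3 under both diets. KRT8 carried the high linseed sums (17.6, 98.6 and 54.5 RPKM in controls, 355, 499.95 and 21.3 with linseed), while EPCAM and ELF5 were lower with linseed in all 3 sheep. Of the 8 matched epithelial markers, milk proteins included, 5 were lower and 0 higher in all 3 sheep. The 8 matched macrophage markers summed to 107 to 1103 and 778 to 1870.5 RPKM, with MARCO and MRC1 at 0 in some library. They moved apart: of 7 with a mean of at least 1 RPKM, 3 were higher (CD68, TREM2 and C1QA) and 1 lower (MRC1) in all 3 sheep. The 6 matched neutrophil markers summed to 422 to 1025 and 2357 to 3188 RPKM, without overlap, and 4 of the 6 were higher in all 3 sheep. The 5 T and NK cell markers ran from 6.98 to 506 RPKM in controls, highest in sheep 3, and from 58.0 to 126 with linseed. The 5 B cell markers ran from 1.13 to 25.8 and 6.49 to 25.8 RPKM, with PAX5 at 0 in some library. In such mixed samples a lower level can come from fewer cells of a type or from less RNA per cell, and these cannot be told apart.

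No member passed the test between diets in limma without a block for the sheep: 0 of 34 members were called higher and 0 lower at an adjusted p under 0.05, where 0% of the 15891 tested transcripts were called higher and 0% lower. At an unadjusted p under 0.05, 2 members were higher (5.88%, against 8.5% of all tested transcripts) and 1 lower (2.94%, against 7%). Once limma's fit held the sheep as a block, it called 1 member higher, MAP2K2, and 1 lower, MAPK6, where 1.28% and 1.34% of transcripts were called. The median log2 change of the 34 members was -0.34, beside -0.12 over all tested transcripts. Log2 changes are on the scale of log2(RPKM + 1), which understates the change of low transcripts, and each standard error (SE) comes from the unblocked fit.

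**Figure D1:**
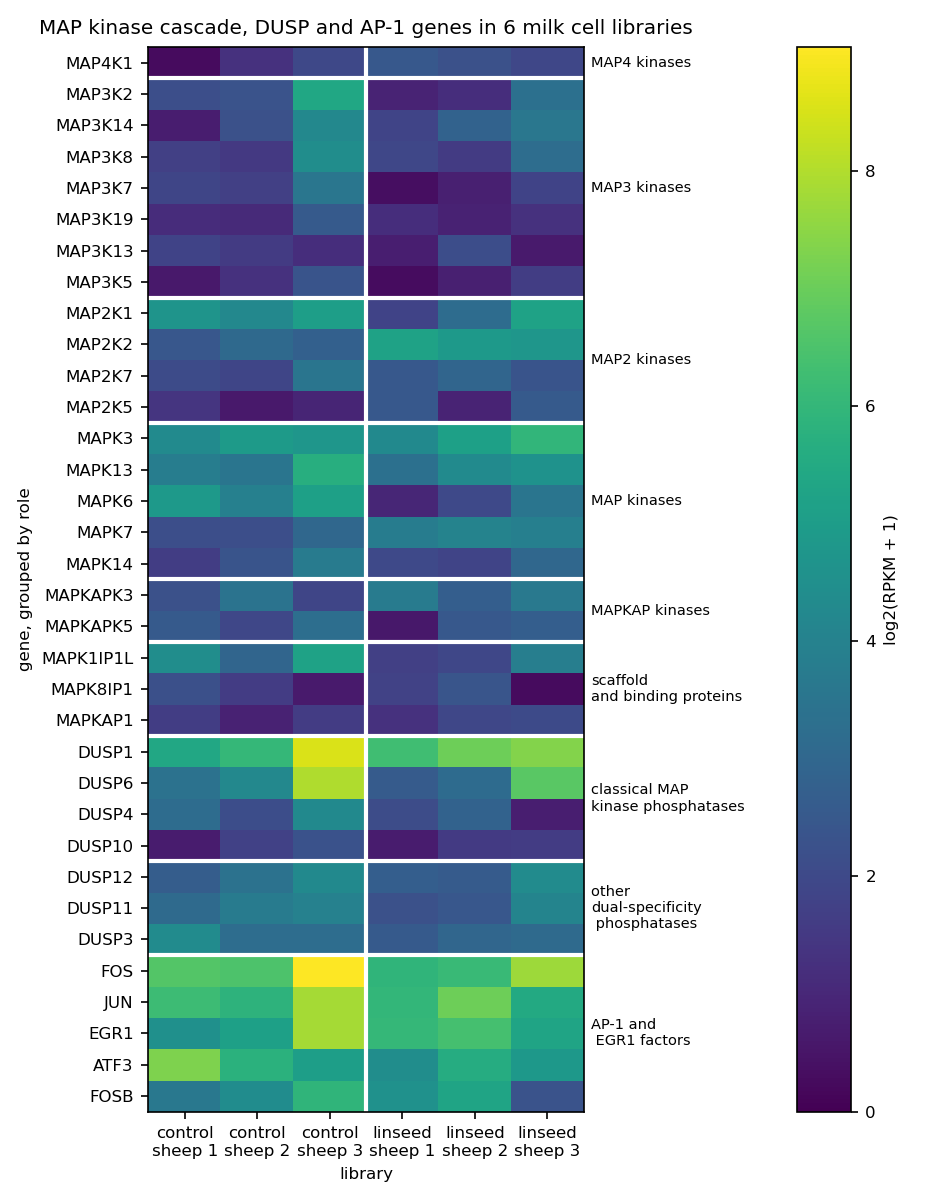
Level of the 34 tested genes, as log2(RPKM + 1), in the 3 control and 3 linseed libraries, with rows grouped by the gene's role and ordered by mean level within it. Control sheep 3 was the highest library for 20 of the 34 genes, FOS, JUN, EGR1, DUSP1 and DUSP6 among them. It was the highest for 41% of all tested transcripts.

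MAP4 kinases, which link receptors to MAP3 kinases, had 2 matched members. MAP4K1, known for its expression in blood cells and as a brake on lymphocyte receptor signalling, stood at 0.213, 1.44 and 2.91 RPKM in control sheep 1, 2 and 3 and at 4.66, 3.79 and 2.80 with linseed. The groups met in sheep 3, and the log2 change of 1.05 ± 0.59 (SE) did not pass limma (adjusted p = 0.395). MAP4K1 had a second transcript of nearly the same length (2694 against 2690 nt), with which it can share reads. Summed over both, it stood at 0.295, 1.94 and 5.19 RPKM in controls and at 7.59, 7.52 and 5.75 with linseed, so that the summed values did not overlap. That sum was set beside the other after its values were seen, and the part of the neutrophil markers, which were also higher without overlap, was not tested. MAP4K4 stayed between 0.0381 and 0.284 RPKM and was not tested.

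MAP3 kinases respond to stress, cytokine and growth signals. By symbol alone, 11 matched members fell in this class, MAP3K7CL among them, and 7 were tested. Of these, 3 (MAP3K2, MAP3K5 and MAP3K7) were lower with linseed in all 3 sheep, where 26.2% of all tested transcripts were. MAP3K7, also called TAK1, which relays interleukin-1 and Toll-like receptor signals, stood at 2.75, 2.26 and 10.8 RPKM in control sheep 1, 2 and 3. With linseed it stood at 0.257, 0.743 and 2.53 RPKM. The groups overlapped because linseed sheep 3 lay above control sheep 2, and the lowest value rested on 6 reads. Its log2 change was -1.41 ± 0.67 (SE; limma adjusted p = 0.338, or 0.0933 with the block).

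MAP3K2, which acts upstream of the ERK5 branch, stood at 3.48, 3.94 and 40.8 RPKM in controls and at 0.867, 1.28 and 9.16 with linseed. Sheep 3 was far above the other ewes under both diets, 11 times their mean in controls and 8.54 times with linseed. MAP3K2 had a log2 change of -1.47 ± 0.95 (SE; limma adjusted p = 0.448, or 0.0936 with the block), which was -0.42 without control sheep 3. The transcript is long, 10734 nt, and after a correction for transcript length its change was -0.86.

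MAP3K14, the NF-kB-inducing kinase, stood at 0.645, 3.73 and 17.8 RPKM in controls and at 2.59, 6.27 and 11.1 with linseed. Sheep 1 and 2 were higher with linseed and sheep 3 lower (log2 change 0.37 ± 0.87 SE, limma adjusted p = 0.854), and the sign turned when the total excluded milk proteins (-0.04). MAP3K8, also called TPL2, which drives the ERK pathway in stimulated macrophages, stood at 2.26, 1.86 and 20.8 RPKM in controls and at 2.76, 1.96 and 8.30 with linseed. It too was highest in both sheep 3 libraries. Summed with its second transcript, MAP3K8 stood at 3.37, 2.99 and 22.6 RPKM in controls and at 2.92, 2.16 and 8.91 with linseed. That sum was lower with linseed in each sheep, unlike the tested transcript, which was slightly higher in sheep 1 and 2. MAP3K5, the stress kinase ASK1, ran from 0.517 to 4.13 RPKM in controls and from 0.245 to 2.13 with linseed, MAP3K19 from 1.09 to 4.97 and 0.805 to 1.47, and MAP3K13 from 1.28 to 2.52 and 0.581 to 3.36. MAP3K3 (0.116 to 2.39 RPKM), MAP3K12 (0 to 1.04) and MAP3K21 (0 to 0.323) had means under 1 RPKM, and MAP3K7CL was listed at 0 in every library.

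MAP2K1 and MAP2K2 encode MEK1 and MEK2, closely related kinases that activate the ERK kinases, and their levels went opposite ways in sheep 1 and 2. MAP2K2 (XM_004008603.3) stood at 4.46, 7.56 and 5.89 RPKM in control sheep 1, 2 and 3 and at 36.5, 28.3 and 25.9 with linseed. Every linseed library lay above every control library, and the mean was 5.07 times higher (5.97 ± 1.55 and 30.3 ± 5.56 RPKM; SD, n = 3). The log2 change of 2.17 ± 0.56 (SE) had a limma adjusted p of 0.263 unblocked, and passed once the sheep was a block (0.0481). That blocked call was lost without sheep 1 (adjusted p = 0.102) or sheep 2 (0.139) and held without sheep 3 (0.0294). It was also lost with recovered reads in voom (0.0599), a length correction (0.0867), milk proteins left out (0.0667), quantile normalization (0.0806) or a pseudocount of 0.1 (0.0687).

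MAP2K1 (XM_012180802.2) stood at 24.6, 17.6 and 32.8 RPKM in controls and at 2.53, 8.25 and 36.0 with linseed. It was lower in sheep 1 and 2 and slightly higher in sheep 3, and its log2 change of -1.24 ± 0.82 (SE) did not pass limma (adjusted p = 0.456). That change was -0.45 without linseed sheep 1 and -2.14 without linseed sheep 3. Within a library, MAP2K1 was 5.52, 2.33 and 5.56 times the level of MAP2K2 in control sheep 1, 2 and 3. With linseed that ratio was 0.0693, 0.291 and 1.39, below every control ratio. The ratio was picked after its values were seen and has no test.

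Both genes had further transcripts, and how the authors divided reads among these is not given in the sources used here. MAP2K2 had 3: XM_015095886.1 stood at 2.93, 10.85 and 9.28 RPKM in controls and at 11.4, 31.0 and 21.1 with linseed, while XM_015095887.1 had 6.36, 2.08 and 13.8 and then 4.23, 4.18 and 7.66. Summed over the 3, MAP2K2 stood at 13.7, 20.5 and 29.0 RPKM in controls and at 52.2, 63.5 and 54.7 with linseed, still without overlap. The second MAP2K1 transcript, XM_015096833.1, stood at 17.0, 7.42 and 25.7 RPKM in controls and at 6.72, 7.40 and 10.7 with linseed. Summed MAP2K1 stood at 41.7, 25.03 and 58.5 RPKM and at 9.25, 15.7 and 46.8, lower in sheep 3 too, and the summed MAP2K1 to MAP2K2 ratio was 1.22 to 3.03 in controls and 0.177 to 0.855 with linseed.

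**Figure D2:**
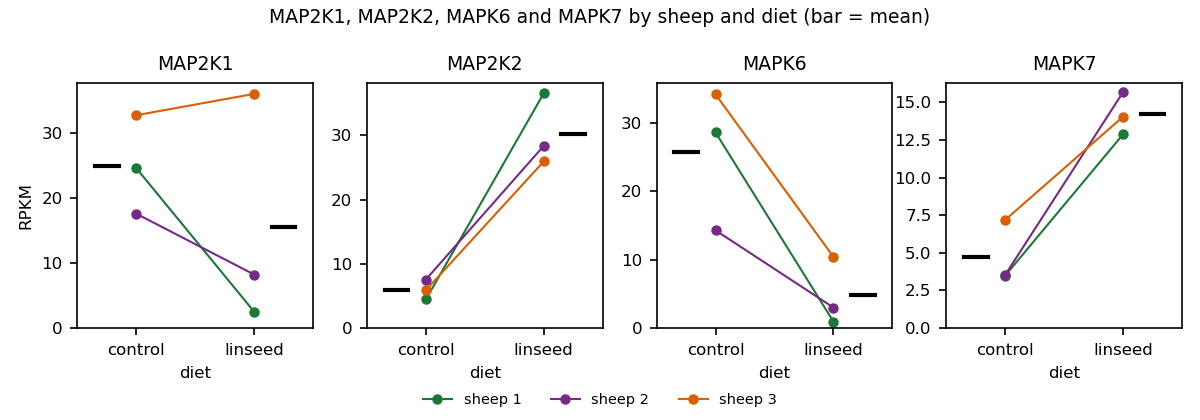
RPKM of MAP2K1, MAP2K2, MAPK6 and MAPK7 under the control and linseed diets, with 1 line per sheep and a black bar for the mean of each diet (n = 3). MAP2K2 and MAPK7 were higher in every linseed library than in any control library, MAPK6 was lower, and MAP2K1 overlapped because linseed sheep 3 was at 36.05 RPKM.

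MAP2K5, the activator of ERK5, stood at 1.63, 0.549 and 0.912 RPKM in controls and at 4.63, 0.883 and 4.88 with linseed. It was higher in each sheep, yet linseed sheep 2 lay below control sheep 1 (log2 change 1.00 ± 0.60 SE, limma adjusted p = 0.421). Summed with its second transcript, MAP2K5 stood at 1.77, 1.32 and 3.15 RPKM and at 4.63, 1.09 and 5.97, so that sheep 2 was lower with linseed. MAP2K7, which activates the JNK kinases, ran from 2.70 to 10.5 RPKM in controls and from 4.14 to 6.77 with linseed. MAP2K6, which activates p38 kinases, ran from 0.0553 to 1.18 RPKM and was not tested.

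Of the MAP kinases themselves, 5 of 6 matched members were tested, and MAPK6 and MAPK7 differed most. MAPK6 (XM_012181550.2) encodes ERK3, an atypical and short-lived kinase without the usual activation motif. It stood at 28.6, 14.3 and 34.1 RPKM in control sheep 1, 2 and 3 and at 0.956, 3.00 and 10.4 with linseed. Every linseed library was below every control library, and the control mean was 5.36 times the linseed mean (25.7 ± 10.2 and 4.79 ± 4.97 RPKM; SD, n = 3). The log2 change was -2.49 ± 0.73 (SE), and its limma adjusted p was 0.263 unblocked and 0.0448 with the block. The lowest value rested on 20 reads of the shallowest library.

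The blocked call of MAPK6 was lost without sheep 1 (adjusted p = 0.127) or sheep 2 (0.0697) and held without sheep 3 (0.0141). It held with milk proteins left out (0.00346) and was lost with voom (0.0623), quantile normalization (0.0804), the length correction (0.101) or a pseudocount of 0.1 (0.0666).

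MAPK7 (XM_015098671.1) encodes ERK5, the end of the branch that MAP3K2 and MAP2K5 feed. It stood at 3.49, 3.54 and 7.19 RPKM in controls and at 12.9, 15.7 and 14.1 with linseed, 3.00 times higher by the means and without overlap. Its log2 change of 1.46 ± 0.57 (SE; 95% interval 0.21 to 2.72) did not pass limma over all transcripts, with an adjusted p of 0.287, or 0.0997 with the block. Of the tested transcripts of that branch, those of MAP2K5 and MAPK7 were thus higher and that of MAP3K2 lower in all 3 sheep, and only MAPK7 was without overlap; summed MAP2K5 was lower in sheep 2.

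Groups without overlap were seen for 2 of 34 members in the higher direction, MAP2K2 and MAPK7, a share of 5.88% where 13.3% of all tested transcripts did so. In the lower direction they were MAPK6 and DUSP3, 5.88% against 7.83%. Both shares lay below those of all tested transcripts.

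MAPK3, which encodes ERK1, had the highest mean of the MAP kinases, 31.6 RPKM over the 6 libraries. It stood at 19.4, 29.7 and 26.1 RPKM in controls and at 18.5, 34.7 and 61.0 with linseed (log2 change 0.45 ± 0.63 SE, 95% interval -0.94 to 1.83), and the sign turned with milk proteins left out (-0.13). MAPK13, the p38-delta gene, stood at 13.2, 10.4 and 49.6 RPKM in controls and at 9.07, 19.3 and 23.7 with linseed. MAPK14, the p38-alpha gene, was lower than MAPK13 in every library, at 2.15, 4.10 and 12.7 RPKM in controls and 2.98, 2.59 and 7.11 with linseed. The MAPK13 level was 2.54 to 6.13 times that of MAPK14 in controls and 3.04 to 7.45 times with linseed. Their log2 changes of -0.23 ± 0.72 and -0.31 ± 0.69 (SE) had 95% intervals of -1.81 to 1.35 and -1.83 to 1.21, too wide to show that they were unchanged. MAPK10, the JNK3 gene known from neurons, had 1 read in all.

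MAPKAPK3 and MAPKAPK5 encode kinases that MAP kinases activate, the former a target of p38 that acts on mRNA stability. MAPKAPK3 stood at 3.70, 9.83 and 2.73 RPKM in controls and at 12.6, 5.46 and 11.7 with linseed, higher in sheep 1 and 3 and lower in sheep 2. MAPKAPK5 stood at 4.84, 2.77 and 8.61 RPKM in controls and at 0.486, 4.64 and 5.52 with linseed, with the opposite pattern of sheep. Their log2 changes were 0.85 ± 0.64 and -0.65 ± 0.71 (SE), and neither passed limma (adjusted p = 0.517 and 0.658).

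The 3 matched symbols of scaffold and binding proteins do not encode kinases. MAPK1IP1L stood at 20.9, 6.83 and 36.2 RPKM in controls and at 2.28, 2.78 and 13.7 with linseed, lower in each sheep (log2 change -1.71 ± 0.79 SE, limma adjusted p = 0.328, or 0.0794 with the block). MAPK8IP1, the JNK scaffold JIP1, stood at 3.59, 2.02 and 0.586 RPKM in controls and at 2.43, 4.23 and 0.208 with linseed. It was the only tested member for which both sheep 3 libraries lay below the other 4 (2.94% of members, against 3.73% of transcripts). MAPKAP1, which encodes the mTORC2 subunit SIN1, ran from 0.820 to 2.15 RPKM in controls and from 1.46 to 3.11 with linseed.

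**Figure D3:**
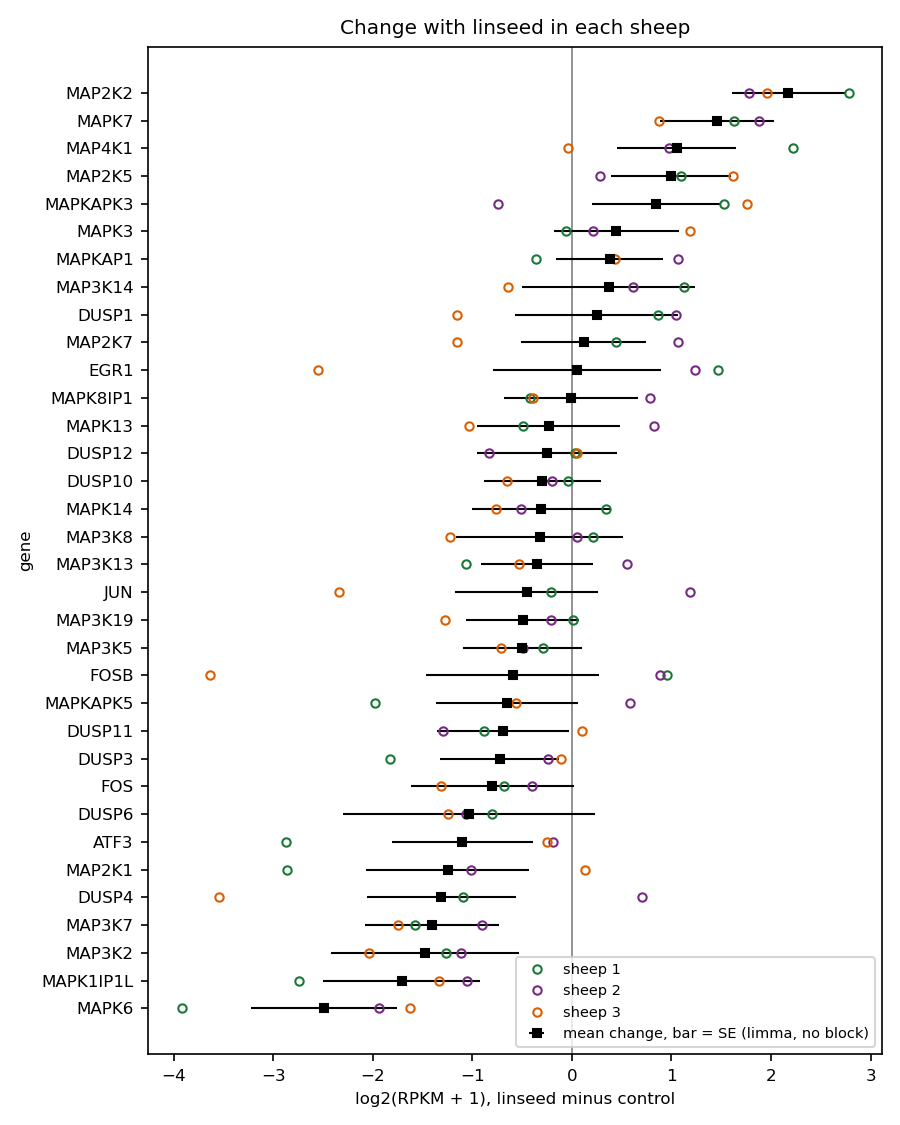
Change of each of the 34 tested genes with linseed, on the log2(RPKM + 1) scale, as circles for the 3 sheep and a black square with its SE for the mean of limma's fit without the block. MAP2K2 at 2.17 and MAPK6 at -2.49 lie at the ends, and the circles of sheep 3 lie far below those of sheep 1 and 2 for EGR1, FOSB, JUN and DUSP1.

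Of 5 classical MAP kinase phosphatases 4 were tested. All 4 peaked in control sheep 3, as did 41% of all tested transcripts. DUSP6 and DUSP10 were lower with linseed in all 3 sheep, as were 26.2% of all tested transcripts. DUSP1, a nuclear phosphatase of p38 and JNK that stress and glucocorticoids induce, had the highest mean of this class. It stood at 41.6, 63.9 and 368 RPKM in control sheep 1, 2 and 3 and at 76.5, 133 and 165 with linseed. Sheep 1 and 2 were higher with linseed and sheep 3 lower, which left a log2 change of 0.25 ± 0.82 (SE; limma adjusted p = 0.898). That sign turned when milk proteins were left out (-0.34) or quantiles were normalized (-0.31).

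DUSP6, a cytoplasmic phosphatase specific to ERK and a common readout of ERK activity, stood at 9.55, 17.7 and 250.3 RPKM in controls and at 5.07, 7.97 and 105 with linseed. It was lower with linseed in each sheep (log2 change -1.03 ± 1.27 SE, limma adjusted p = 0.699, or 0.224 with the block). Sheep 3 had 18.4 times the mean of the other ewes in controls and 16.1 times with linseed. DUSP6 was 0.680 and 0.638 of the DUSP1 level in the sheep 3 libraries, and 0.0600 to 0.277 of it in the other 4.

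DUSP4, a nuclear phosphatase of ERK and JNK, stood at 8.19, 3.35 and 18.7 RPKM in controls and at 3.30, 6.12 and 0.686 with linseed. Sheep 3 thus went from the highest to the lowest of the 6 libraries, and the log2 change was -1.31 ± 0.75 (SE; limma adjusted p = 0.400). Without sheep 3 under both diets it was -0.19, without its control library -0.76 and without its linseed library -0.74; without sheep 2 it was -2.32. DUSP10 ran from 0.632 to 3.81 RPKM in controls and from 0.594 to 2.06 with linseed. DUSP9 was listed at 0 in every library.

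The other DUSP enzymes act on varied substrates, and 3 of 7 matched members were tested. DUSP3, a small phosphatase of ERK and JNK, stood at 19.8, 8.46 and 8.47 RPKM in controls and at 4.88, 6.99 and 7.78 with linseed. The groups did not overlap, but the gap in sheep 2 and 3 was small, and the log2 change was -0.73 ± 0.60 (SE; limma adjusted p = 0.550). DUSP11, which acts on RNA 5′ ends, stood at 7.75, 12.6 and 14.9 RPKM and at 3.75, 4.53 and 16.1. DUSP12 stood at 5.28, 9.74 and 18.7 RPKM in controls and at 5.44, 5.04 and 19.5 with linseed. DUSP19 (0 to 1.96 RPKM), DUSP26 (0 to 1.498) and DUSP13A (0 to 1.00) had means under 1 RPKM, and DUSP21 was listed at 0 in every library. The filter fell between DUSP26 and DUSP19 (means of 0.589 and 0.629 RPKM) and MAP3K5 and MAP3K13 (1.53 and 1.73).

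AP-1 is a dimer of FOS and JUN family proteins, and EGR1 is a zinc finger factor induced by the same signals. All 5 matched members were tested, and 4 of them peaked in control sheep 3, where 41% of all tested transcripts did so. FOS, the most abundant member at a mean of 177 RPKM, stood at 97.2, 92.0 and 529 RPKM in control sheep 1, 2 and 3 and at 60.2, 69.4 and 213 with linseed. It was lower with linseed in each sheep, by less than the spread between sheep (log2 change -0.80 ± 0.82 SE, limma adjusted p = 0.634, or 0.386 with the block).

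JUN stood at 72.6, 56.8 and 225 RPKM in controls and at 62.9, 130.4 and 43.7 with linseed. EGR1 stood at 22.3, 34.1 and 226 RPKM in controls and at 63.6, 81.8 and 37.7 with linseed. FOSB, a FOS paralog, stood at 11.2, 20.2 and 60.1 RPKM and at 22.8, 38.2 and 3.93. EGR1 and FOSB thus shared 1 pattern: higher with linseed in sheep 1 and 2, and from the highest library to a far lower level in sheep 3.

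The log2 change of EGR1 was 1.47 and 1.24 in sheep 1 and 2 and -2.55 in sheep 3, and that of FOSB 0.96, 0.89 and -3.63. That of JUN was -0.20, 1.19 and -2.34. The means over sheep were 0.05 ± 0.84 for EGR1, -0.59 ± 0.87 for FOSB and -0.45 ± 0.72 for JUN (SE; limma adjusted p = 0.981, 0.753 and 0.775). Without sheep 3 under both diets they were 1.36, 0.92 and 0.49, and without its control library alone 1.05, 0.05 and 0.15. EGR1 also turned sign under the length correction (-0.11), quantile normalization (-0.41) and the exclusion of milk proteins (-0.53).

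ATF3, a stress-induced factor that can repress inflammatory genes, did not follow the others. It stood at 156, 53.9 and 32.7 RPKM in controls and at 20.6, 47.3 and 27.4 with linseed, with its peak in control sheep 1. It was lower in each sheep, mostly in sheep 1 (log2 changes of -2.87, -0.18 and -0.25), and the mean of -1.10 ± 0.71 (SE) did not pass limma (adjusted p = 0.449). ATF3 was 1.61 times the level of FOS in control sheep 1 and 0.0617 times in control sheep 3.

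**Figure D4:**
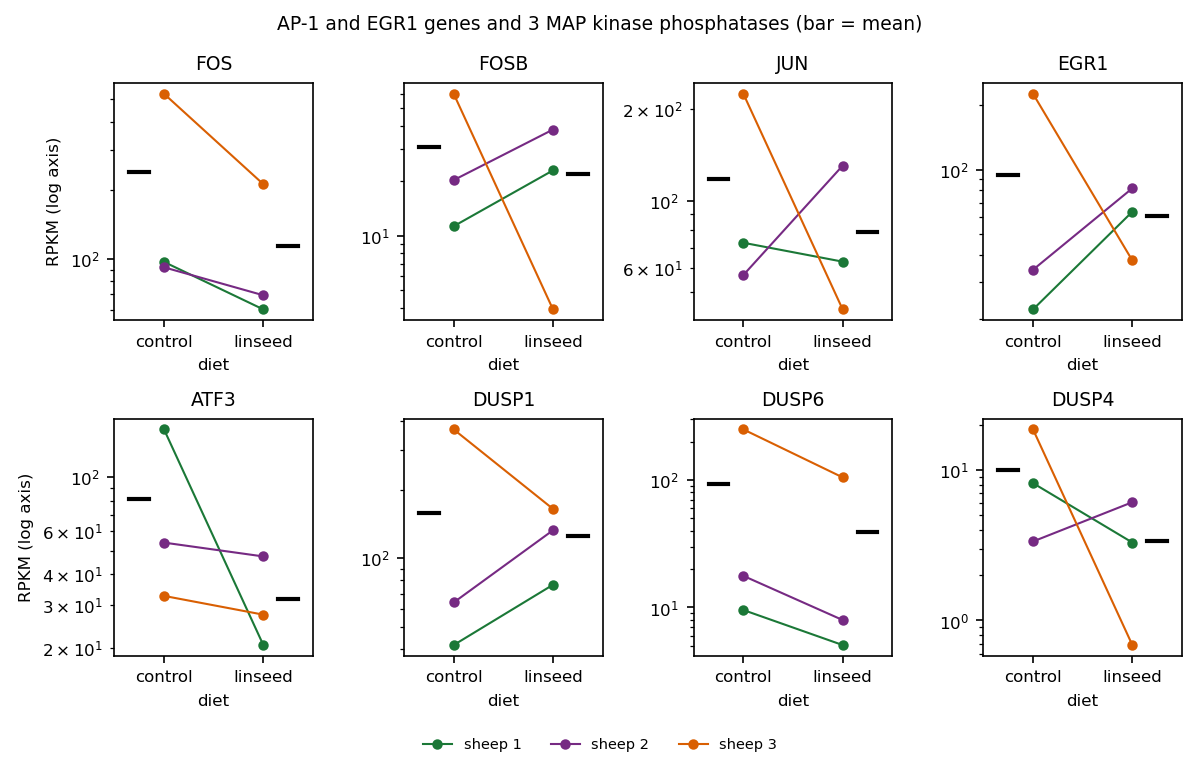
RPKM, on log axes that differ between panels, of the 5 AP-1 and EGR1 genes and of DUSP1, DUSP6 and DUSP4 under each diet, with 1 line per sheep and a black bar for the mean (n = 3). Control sheep 3 was the highest point in every panel but that of ATF3, whose highest point, 156 RPKM, was control sheep 1. Across all tested transcripts, 41% peaked in control sheep 3.

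Across the 34 tested members, control sheep 3 was the highest library for 20 (58.8%), where it was highest for 41% of all tested transcripts. Control sheep 1 was the highest for ATF3 and DUSP3 (5.88%, against 9.19%), and linseed sheep 1 the lowest for 15 members (44.1%, against 33.1%). Both sheep 3 libraries lay above the other 4 for 14 members (41.2%), against 28.9%: FOS, DUSP1, DUSP6, DUSP11, DUSP12, MAP2K1, MAP3K2, MAP3K5, MAP3K8, MAP3K14, MAP3K19, MAPK13, MAPK14 and MAPKAPK5. In a test of differences among the 3 sheep with diet kept in limma's fit, chosen after the data were seen, 2 of 34 members passed (5.88%, against 4.02% of transcripts): DUSP6 (adjusted p = 0.0105) and MAP3K2 (0.0318). MAP3K14 and MAP3K8 did not pass (0.0742 and 0.0825), and 11 members had an unadjusted p under 0.05 (32.4%, against 21.9%). Both calls rest on the pairing of libraries by title number, and both were lost without the filter on low values (0.313). The DUSP6 call was lost with quantile normalization (0.0538) and the length correction (0.0786), and that of MAP3K2 without control sheep 3 (0.139), with a pseudocount of 0.1 (0.0585), a filter at a mean of 5 RPKM (0.0596), quantile normalization (0.176) or the length correction (0.252). Sheep 3 also had the lowest milk protein share and the lowest epithelial marker sum under both diets, and the part of these in the members' levels was not tested.

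By direction, 3 of 34 members were higher with linseed in all 3 sheep (8.82%, against 23% of transcripts): MAP2K2, MAP2K5 by its tested transcript, and MAPK7. The 10 that were lower in all 3 (29.4%, against 26.2%) were MAPK6, MAPK1IP1L, MAP3K2, MAP3K5, MAP3K7, DUSP3, DUSP6, DUSP10, FOS and ATF3. The members' median log2 change was -0.24, 0.13 and -0.68 in sheep 1, 2 and 3, beside 0.02, 0.03 and -0.22 over all tested transcripts. A total that excluded milk proteins moved the median of all transcripts from -0.12 to -0.52 on the log2 scale.

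Other genes of the pathway were read from 5 lists of symbols, which were chosen with earlier results of these data known. None of their members passed limma without the block. With it, 5 passed, all lower with linseed, where 1.34% of all tested transcripts were called lower. All 5 calls were lost with voom, quantile normalization, the length correction or a pseudocount of 0.1, settings under which the blocked fit called no transcript. Of 12 tested RAS and RAF genes, which start the ERK cascade, 7 were lower and 2 higher in every sheep, and the list's median log2 change was -1.18. For these counts and those of the lists below, 26.2% of all tested transcripts were lower and 23% higher in all 3 sheep. RAP1B, a small GTPase, stood at 81.0, 39.0 and 60.4 RPKM in controls and at 6.42, 11.1 and 33.8 with linseed (log2 change -2.0 ± 0.70 SE). SHC1, an adaptor between receptors and RAS, stood at 1.79, 2.76 and 11.4 RPKM and at 0.242, 0.666 and 0.759 (-1.72 ± 0.64 SE). Neither passed in limma's blocked fit (adjusted p = 0.0713 and 0.0658).

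Of 12 tested activating adaptors, 6 were lower and 1 higher in every sheep, and the median was -0.77. LAMTOR2, a subunit of the late endosomal scaffold that holds MEK1, stood at 24.1, 85.1 and 32.0 RPKM in controls and at 244, 168 and 136 with linseed (log2 change 2.10 ± 0.66 SE, limma adjusted p = 0.263, or 0.0654 with the block). SHOC2, a scaffold that helps activate RAF, stood at 11.4, 5.55 and 27.8 RPKM and at 0.509, 1.01 and 7.03. SHOC2 (-2.20 ± 0.79 SE) was 1 of the 5 calls of limma's blocked fit (adjusted p = 0.0457), as was TAB2 (0.0461), a partner of TAK1 that was named after its values were seen.

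Inhibitors of the pathway had 6 tested genes, 4 lower and 0 higher in every sheep, and their median was -1.12. RASA1, which switches RAS off, stood at 37.9, 5.88 and 12.7 RPKM in controls and at 1.13, 2.60 and 3.93 with linseed (log2 change -2.20 ± 0.73 SE, limma adjusted p = 0.263, or 0.0625 with the block). PPP2CA, the catalytic subunit of protein phosphatase PP2A, stood at 179, 99.0 and 127 RPKM and at 13.5, 27.2 and 123 (-1.83 ± 0.79 SE).

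Of 10 tested substrate kinases and factors, 5 were lower and 0 higher in every sheep, and the median was -0.66. RPS6KA3, the RSK2 kinase that ERK activates, stood at 8.50, 2.57 and 13.2 RPKM in controls and at 0.910, 0.0443 and 2.28 with linseed. ETS1, a factor that ERK phosphorylates and that lymphocytes express, stood at 14.2, 9.17 and 189.7 RPKM and at 2.19, 3.66 and 8.81. Both were among the 5 calls of limma's blocked fit (RPS6KA3 and ETS1 adjusted p = 0.0448 and 0.0481), and the lowest RPS6KA3 value rested on 2 reads. The T and NK marker sum also peaked in control sheep 3, and its part in the ETS1 level was not tested.

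Of 19 tested immediate early genes outside the family, 6 were lower and 1 higher in every sheep, the median was -0.63, and 11 peaked in control sheep 3. Of all tested transcripts, 26.2% were lower in every sheep and 41% peaked in control sheep 3. KLF6 stood at 114, 43.4 and 245 RPKM in controls and at 15.4, 24.97 and 69.2 with linseed (log2 change -1.80 ± 0.79 SE). The chemokine gene CXCL8, which the cascades induce in several cell types, was the last of the 5 calls of limma's blocked fit (adjusted p = 0.0441), at 246, 411 and 2263 RPKM in controls and 39.1, 48.0 and 474 with linseed. The medians of all 5 lists lay below the -0.12 of all tested transcripts, and these lists have no test of their own.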

How the data were processed

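RNA from milk somatic cells was sequenced in 6 libraries, 3 per diet, from the same 3 ewes. Each library came from the cell pellet of 250 ml of milk and was made with a TruSeq kit, per the labels' protocols. The authors deposited RPKM values for 49705 RefSeq transcripts. Trimmomatic 0.33 is named in the submitters' processing notes; no aligner, counter, genome build or rule for dividing reads between isoforms is (not given in the sources used here). C and L in the titles were read as the diets that the series design describes.

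Accessions, versions ignored, were named from RefSeq genes of ARS-UI_Ramb_v3.0, with no coordinates taken: 15836 (31.9%) matched. The steps between low values gave each library's total and each transcript's length, with a tolerance of 0.002 reads, and the solved reads summed to at least 99.4% of each total. Precision follows these reads: 1 read at 2000 nt was worth 0.0221 to 0.101 RPKM, and 3 tested members had a library with under 10 reads.

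The 15891 transcripts whose mean reached 1 RPKM were compared as log2(RPKM + 1) in limma 3.58.1 (R 4.3.3), with a trend in the prior variance and p-values adjusted over all of them (Benjamini-Hochberg). The fit was tested on simulated data. It leaves 4 residual degrees of freedom, or 2 with the sheep as a block. The same animals gave both groups, which is the source of the pairing. Control and linseed titles with the same number were assumed to be the same ewe. Each change per sheep, each count of genes alike in every sheep, each blocked fit and the test among sheep rest on that assumption. After subtraction of group means, the pairs correlated at 0.18, 0.25 and 0.40, and control sheep 1 correlated at 0.24 with linseed sheep 2. These values do not settle the pairing of sheep 1 and 2.

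Members and lists were chosen with earlier results of these data known. Named genes were the 8 members of smallest p in each direction, the 2 of highest mean in each role class, 8 fixed genes where matched, and the 2 of smallest p in each other list; remaining members are given by their range or values. Alternatives are in the closing section.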

Additional observations from a re-analysis of the deposited data

How the results depend on the processing

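Of 34 tested members, 16 kept their direction under every alternative run for them, among them MAPK6 (-3.17 to -1.78), MAP2K2 (1.63 to 2.48) and MAPK7 (0.94 to 1.75). Without the block, no alternative called a member or any transcript. The replicate block called 203 transcripts higher and 213 lower, and 1 member each way. It called 261 and 1762 transcripts with milk proteins left out, with 0 members higher and 4 lower (MAPK6, MAPK1IP1L, MAP3K2 and MAP3K7), and 0 with voom, quantile normalization, the length correction or a pseudocount of 0.1. Leaving out a sheep, the blocked fit called 107, 96 and 982 transcripts higher and 145, 77 and 1018 lower without sheep 1, 2 and 3, and 0 to 1 members each way. These blocked alternatives, and the test among sheep, were chosen after seeing the data.

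Signs turned with milk proteins left out for EGR1 (-0.53), MAPK3 (-0.13), MAP2K7 (-0.37), MAP3K14 (-0.038), DUSP1 (-0.34) and MAPKAP1 (-0.032). They turned with quantile normalization for EGR1 (-0.41), DUSP1 (-0.31) and MAPK8IP1 (0.11), and with the length correction for EGR1 (-0.11), MAP2K7 (-0.19), MAP3K13 (0.22) and MAPK8IP1 (0.075). The cause was not tested.
Leaving out a library or a sheep also turned the sign of FOS (-1.37 to 0.026), JUN (-1.27 to 0.49), EGR1 (-0.66 to 1.36), FOSB (-1.37 to 0.92), MAPK13 (-0.76 to 0.43), MAPK14 (-0.78 to 0.28), MAP2K7 (-0.36 to 0.76), MAP3K14 (-0.47 to 1.29), MAP3K8 (-0.84 to 0.62), MAP3K13 (-0.82 to 0.011), MAPKAPK5 (-1.27 to 0.025), DUSP1 (-0.37 to 1.19), DUSP6 (-2.32 to 0.35), DUSP10 (-0.73 to 0.053), DUSP12 (-0.82 to 0.17) and MAPK8IP1 (-0.46 to 0.60); the parentheses give the lowest and highest log2 change. The same omissions kept the direction but moved the value by over 1.5 times for ATF3 (-1.59 to -0.22), MAPK3 (0.04 to 0.87), MAP2K1 (-2.14 to -0.44), MAP2K5 (0.69 to 1.54), MAP3K2 (-2.24 to -0.42), MAP3K5 (-0.90 to -0.02), MAP3K7 (-1.82 to -0.82), MAP3K19 (-0.76 to -0.0042), MAP4K1 (0.47 to 1.60), MAPKAPK3 (0.39 to 1.65), MAPKAP1 (0.04 to 0.75), DUSP3 (-1.03 to -0.18), DUSP4 (-2.32 to -0.19) and DUSP11 (-1.27 to -0.34).

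The test among sheep called 2 members, and 1 with a pseudocount of 0.1 or a mean of at least 5 RPKM, 0 with no filter, quantile normalization or the length correction, and 1 to 7 when a library was left out. Depth limits the low members most: MAP3K7 and MAP3K5 rested on 6 reads in linseed sheep 1.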
